A study of Mus musculus with 230 samples.

Results

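Heat shock proteins are molecular chaperones, and 10 of their genes are described here in mouse sensory neurons: the small heat shock proteins Hspb1, Hspb8 and Cryab, the HSP70 proteins Hspa1a, Hspa1b and Hspa8, the HSP110 protein Hsph1, the J-domain protein Dnajb1, and the HSP90 proteins Hsp90aa1 and Hsp90ab1. They were chosen by name, as the main cytosolic chaperone genes, out of 53278 genes counted. All 10 passed the filter on low counts. In mice of a C57BL/6 X CAST/Ei cross, neurons of the L4 and L5 dorsal root ganglia, which send axons into the sciatic nerve, were picked by hand. They were taken for low-input RNA-seq or single-cell RNA-seq after injury of that nerve or with the nerve intact. Names of intact libraries and cells carry the letter l or L where those of injured ones carry r or R, so condition coincides with this mark. Whether injured and intact neurons came from the same mice is not stated. The low-input groups held 3 libraries each: intact neurons at 1, 8 and 12 months of age, and injured neurons at 1, 8 and 12 months. The single-cell groups were 18 intact and 21 injured cells at 1 month, and 8 intact and 22 injured cells at 1 year. The labels name no animal, no number of neurons per low-input library and no time since injury. Every p-value here therefore measures the spread between these libraries, which may be technical. Each group of cells counts as 1 sample, without a test.

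Chaperones bind other proteins that are not fully folded. Small heat shock proteins form oligomers that hold such proteins without using ATP, HSP70 proteins bind and release them in an ATP cycle started by J-domain proteins and reset by HSP110 exchange factors, and HSP90 proteins act later, on kinases and steroid receptors. Heat shock factor 1 induces many of these genes under stress by binding heat shock elements, which are inverted repeats of the unit GAA. In sensory neurons, HSPB1 is an abundant protein that is known for supporting neuron survival and axon growth after axotomy, and inherited variants of HSPB1 and HSPB8 cause motor and sensory neuropathies.

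The start regions of the members that the results below turn on are shown to set the pair of nearly identical HSP70 genes side by side and to show where letters of a heat shock element occur. They come from RefSeq (GRCm38.p6), run from 250 bases before to 50 bases after a RefSeq start of the gene, and are written on the gene's own strand. That start is the first base of the gene in the count table for Hspb1, Hspa1a and Hspa1b, and lies 61 bases into it for the Hsph1 window shown. Capitals mark matches to GAANNTTC, searched on both strands (the motif reads the same on either), or, in Hsph1, a match to a longer form of 3 alternating inverted GAA units, which here overlaps the short form.
Hspb1, chr5:135887669-135887968, plus strand: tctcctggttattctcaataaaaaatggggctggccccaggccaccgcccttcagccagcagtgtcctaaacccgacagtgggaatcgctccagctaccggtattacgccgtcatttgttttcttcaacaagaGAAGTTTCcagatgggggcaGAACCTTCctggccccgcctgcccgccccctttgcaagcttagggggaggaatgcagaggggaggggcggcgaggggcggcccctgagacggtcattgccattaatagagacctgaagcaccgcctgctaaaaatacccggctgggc
Hspa1a, chr17:34972107-34972406, minus strand: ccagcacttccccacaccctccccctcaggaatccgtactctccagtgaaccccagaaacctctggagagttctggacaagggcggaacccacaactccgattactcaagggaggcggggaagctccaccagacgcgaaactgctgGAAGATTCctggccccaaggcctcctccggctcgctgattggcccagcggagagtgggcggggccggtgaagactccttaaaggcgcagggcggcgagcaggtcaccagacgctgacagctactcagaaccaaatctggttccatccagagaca
Hspa1b, chr17:34959189-34959488, minus strand: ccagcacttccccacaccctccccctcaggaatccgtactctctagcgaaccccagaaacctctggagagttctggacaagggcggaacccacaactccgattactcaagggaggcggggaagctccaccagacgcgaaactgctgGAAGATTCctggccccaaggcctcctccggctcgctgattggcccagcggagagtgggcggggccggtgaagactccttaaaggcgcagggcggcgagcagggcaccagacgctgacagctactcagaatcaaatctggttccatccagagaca
Hsph1, chr5:149636266-149636565, minus strand: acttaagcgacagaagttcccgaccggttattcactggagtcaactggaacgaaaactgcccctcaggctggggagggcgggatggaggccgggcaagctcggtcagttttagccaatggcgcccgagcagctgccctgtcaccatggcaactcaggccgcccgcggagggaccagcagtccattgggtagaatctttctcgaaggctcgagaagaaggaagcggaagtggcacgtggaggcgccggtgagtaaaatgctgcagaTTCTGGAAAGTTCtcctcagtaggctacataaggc
The Hspb1 window held the short form 2 times, 117 and 97 bases before the start. Hspa1a and Hspa1b held it once each, 104 bases before the start, in windows that were identical at 296 of 300 positions. Counted from the first base shown, Hspa1b differed from Hspa1a by C44T, T47C, T249G and C276T. The match in Hsph1 began 15 bases after the RefSeq start of the gene in the window shown. It began 36 bases after the RefSeq start used for a second window of that gene. RefSeq windows were matched for 6 members, of which 5 held the short form, Hspb8 included, and Dnajb1 did not. Among all 32851 windows of this length, 7.86% held the short form and 0.603% held the form of 3 units. A match describes letters in a window and not a bound site.

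The 18 low-input libraries held 7531967 to 19443627 gene counts, of which 1 feature, CT010467.1, took 29.4% to 93.8%. One library stood apart: the second intact library of 12 months had 770328 counts outside that feature, 40.5% of them mitochondrial. Some of the results that it bears on are given with and without it. In the averaged injury contrast it moved Hspa1b the most of the members (-1.63, and -1.31 without it; edgeR adjusted p = 0.111), and 0 members were called either way. Without it the averaged changes of Hspb1 and Hspb8 were 0.94 and 0.26. Counts for 4 Y-linked genes were present in all 12 libraries of 1 and 8 months and in 0 of the 6 libraries of 12 months, so a difference in sex cannot be told apart from age in comparisons with 12 months. Neuronal markers summed to 3820 to 9900 counts per 1000000 counts of the scaled library (CPM) in every library. Atf3 and Sprr1a, genes known to be induced by axotomy, rose in the contrast of injured with intact neurons averaged over the 3 ages, by 5.76 and 11.39 on the log2 scale (edgeR quasi-likelihood test with Benjamini-Hochberg adjustment, adjusted p = 1.813e-05 and 4.735e-08). Satellite glia markers summed to 97.3 to 609 CPM in intact and 1280 to 2010 CPM in injured libraries of 1 month, 94.7 to 525 and 356 to 700 CPM at 8 months, and 46 to 742 and 114 to 432 CPM at 12 months. Schwann cell markers summed to 205 to 866 CPM in intact and 311 to 550 CPM in injured libraries, with Mag at 0 in all injured libraries. Immune markers summed to at most 32.5 CPM, endothelial markers to 46.3 CPM, mural and muscle markers to 4.97 CPM and fibroblast markers to 72.2 CPM in any library. The part of these cells in the results below was not tested, and in bulk libraries a lower count from fewer cells of a type cannot be told apart from less RNA per cell.

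With counts scaled to library size and exon length (RPKM, mean of 18 libraries), the most abundant members were Hsp90ab1 at 418, Hspb1 at 349, Hspa8 at 286 and Hsp90aa1 at 177. Hspb8 followed at 102.0, then Cryab at 18.7, Dnajb1 at 15.4 and Hsph1 at 14.4. The stress-inducible pair Hspa1b and Hspa1a stood at 0.673 and 0.633. A small heat shock protein thus stood between the constitutive HSP90 and HSP70 genes on this scale. All further levels in the low-input libraries are CPM on library sizes scaled by the trimmed mean of M-values.

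Hspb1 (chr5:135887919-135889563, plus strand) had the largest positive fitted change after injury among the members in the contrast averaged over ages, and at 1 and 8 months. At 12 months Hspb8 (0.50) and Dnajb1 (0.45) had larger ones, which were 0.23 and 0.42 without the second intact library of that age. In intact neurons it was at 515, 293 and 199 CPM in replicates 1, 2 and 3 of 1 month, 63.4, 256 and 6.90 CPM in those of 8 months and 359, 117 and 429 CPM in those of 12 months. In injured neurons it was at 626, 377 and 707 CPM in those of 1 month, 213, 629 and 464 CPM in those of 8 months and 428, 434 and 350.3 CPM in those of 12 months. The 3 injured groups had the highest means, and the ranges of injured and intact libraries overlapped at every age. The low end was set by the intact libraries of 8 months, of which replicate 3 lay far below all others. Over 9 libraries each, the mean Hspb1 level was 249 ± 170 CPM for intact and 470.0 ± 157 CPM for injured neurons (SD). The averaged injury contrast gave a log2 change of 1.06 ± 0.46 (SE; 95% interval 0.06 to 2.06) that did not pass the threshold of 0.05 (edgeR, Benjamini-Hochberg adjusted p = 0.203). By age the log2 change was 0.76 ± 0.79 at 1 month (adjusted p = 1.0), 2.00 ± 0.82 at 8 months (0.314) and 0.41 ± 0.79 at 12 months (0.837), and the interaction of injury with age was not called (edgeR adjusted p = 0.912). Without the second intact library of 12 months the change at that age was 0.04 ± 0.90 (edgeR adjusted p = 0.984).

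Mrgprd, a receptor that marks non-peptidergic nociceptors, varied in the same 8-month libraries. It was at 0, 649 and 303 CPM in the 3 intact and at 448, 1.74 and 66.5 CPM in the 3 injured replicates. The injured library with the most Mrgprd had the least Hspb1 of its group. The intact library with the most Mrgprd instead had the most Hspb1 of its group, and the intact one without Mrgprd had neither the most nor the least. The part of the mix of neurons in the Hspb1 values was not tested. Leaving out the second intact library of 8 months gave an averaged log2 change of 1.61 ± 0.40 (edgeR adjusted p = 0.022) for Hspb1 that passed the threshold.

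Hspb1 shares sequence with the processed pseudogene Hsp25-ps1 (chr13:45078498-45079127, minus strand). Hspb1 had 20.7 to 42 times as many counts as Hsp25-ps1 in each library, and 28.6 times over the 18 libraries. When both were summed, an alternative chosen after seeing the data, the averaged log2 change remained 1.06 (edgeR adjusted p = 0.205).

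Hspb8 (chr5:116408491-116422864, minus strand), a small heat shock protein that works with BAG3 in the disposal of misfolded proteins, varied the least among the 3 small heat shock proteins. It was at 150.0, 186 and 173 CPM in intact neurons of 1 month, 184, 193 and 219 CPM in those of 8 months and 162, 86.7 and 215 CPM in those of 12 months. Injured neurons had 170, 202 and 175 CPM at 1 month, 264, 269 and 271 CPM at 8 months, and 188, 226 and 246 CPM at 12 months. All 3 injured libraries of 8 months lay above all 3 intact ones of that age and above all injured ones of 12 months, and at 1 and 12 months injured and intact libraries overlapped. The labels do not say that same-numbered libraries belong together. Within the 3 same-numbered pairs of 1 month, Hspb8 was higher in the injured library in 3, as was Hspb1. Hsp90ab1 and Hsph1 were higher in 0 of the 3 pairs and the remaining members in 1 or 2, and the share of all genes was not counted. With the replicate block the changes of Hspb8 and Hspb1 at that age were 0.11 ± 0.31 and 0.82 ± 0.78 (edgeR adjusted p = 1.0 for both). The averaged log2 change was 0.34 ± 0.16 (95% interval -0.00 to 0.69; edgeR adjusted p = 0.235) and that of 8 months was 0.43 ± 0.28 (edgeR adjusted p = 0.607). Bag3 itself had an averaged log2 change of 0.05 ± 0.19 (edgeR adjusted p = 0.933).

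Cryab (chr9:50751325-50756636, plus strand) encodes alpha B-crystallin, the small heat shock protein of lens, muscle and glia. It was at 19.5, 47.4 and 9.23 CPM in intact neurons of 1 month, 24, 3.03 and 19.4 CPM in those of 8 months and 40.3, 130.0 and 51.3 CPM in those of 12 months. Injured neurons had 12.5, 43.4 and 19.1 CPM at 1 month, 7.03, 27.7 and 14.7 CPM at 8 months, and 8.66, 10.4 and 10.9 CPM at 12 months. The groups overlapped at 1 and 8 months, and at 12 months every injured library lay below every intact one. The log2 change at 12 months was -2.84 ± 0.77 (95% interval -4.52 to -1.15) and missed the threshold (edgeR adjusted p = 0.0588). At 1 and 8 months it was -0.02 ± 0.71 and 0.09 ± 0.72, and the difference between ages was not called (interaction, edgeR adjusted p = 0.506). Between 8 and 12 months Cryab differed in intact neurons by 2.20 ± 0.76 (edgeR adjusted p = 0.0849), and by 1.56 ± 0.78 without the second intact library of 12 months (edgeR adjusted p = 0.188). Scaled to spike-ins the injury change at 12 months had the opposite sign, at 3.11 (edgeR adjusted p = 0.0242), on a scale where 96.2% of all genes were called.

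The highest Cryab value came from the second intact library of 12 months, which also had 7660 CPM of the heavy neurofilament gene Nefh and 1640 CPM of S100b, a calcium-binding protein of glia and large neurons. The other 17 libraries had 188 to 1510 CPM of Nefh and 76 to 495 CPM of S100b. Large-fibre markers, Nefh included, summed to 7990 CPM in it, so nearly all of that sum was Nefh. In the first intact library of 1 month they summed to 2130 CPM with 1510 CPM of Nefh. The part of the mix of neurons in the Cryab values was not tested. Without the second intact library of 12 months the change of Cryab at that age was -2.19 ± 0.79 (edgeR adjusted p = 0.108). It passed the threshold without intact 12-month replicate 1 (-3.14; edgeR adjusted p = 0.0473), intact 8-month replicate 1 (-2.82; 0.0466) or intact 8-month replicate 2 (-2.83; 0.0310). S100b was also the gene with the highest correlation with Cryab over the 18 libraries (Pearson r = 0.879 on log2 CPM). Cryab overlaps Hspb2 on the opposite strand and counting ignored strand. Hspb2 was at most 0.385 CPM in any library.

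Hspa1a (chr17:34969190-34972156, minus strand) and Hspa1b (chr17:34956436-34959238, minus strand) encode the same stress-induced HSP70. Their coding sequences are nearly identical, and fragments that align to both were not counted, so the split between them is uncertain. Both had few counts, with 409 counts of Hspa1a and 350 of Hspa1b over all 18 libraries. Hspa1a was at 1.20, 1.44 and 0.807 CPM in intact neurons of 1 month, 2.58, 3.78 and 4.43 CPM in those of 8 months and 1.11, 1.81 and 2.39 CPM in those of 12 months. Injured neurons had 0.242, 1.99 and 2.39 CPM at 1 month, 1.85, 2.64 and 1.64 CPM at 8 months, and 0.879, 1.11 and 1.53 CPM at 12 months. Intact libraries of 8 months were the highest, and injured and intact libraries overlapped at each age.

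Hspa1b was highest in the same group. It was at 0.150, 0.718 and 0.577 CPM in intact neurons of 1 month, 1.75, 7.13 and 11.7 CPM in those of 8 months and 1.20, 5.42 and 0.217 CPM in those of 12 months. Injured neurons had 0.181, 0.641 and 0.265 CPM at 1 month, 0.925, 0.486 and 0.614 CPM at 8 months, and 0.440, 0.996 and 0.583 CPM at 12 months. At 8 months all intact libraries lay above all injured ones, and above all intact libraries of 1 month. The averaged log2 change of Hspa1b was -1.63 ± 0.56 (95% interval -2.85 to -0.41), which had the lowest adjusted p of the members in that contrast but missed the threshold (edgeR adjusted p = 0.0960). That of 8 months was -3.34 ± 0.96 (edgeR adjusted p = 0.119), and the log2 difference of 8 from 1 month in intact neurons was 3.78 ± 0.97 (edgeR adjusted p = 0.0744). With Hspa1a and Hspa1b summed as 1 gene the averaged change was -0.86 ± 0.39 (edgeR adjusted p = 0.213). The comparison of 8 with 1 month passed when intact 12-month replicate 2 or 3 or intact 8-month replicate 1 was left out (log2 3.77, 3.77 and 4.22; edgeR adjusted p = 0.0334, 0.0441 and 0.0421). The averaged injury change passed without intact 12-month replicate 3 (-1.88; edgeR adjusted p = 0.0440) or intact 8-month replicate 1 (-1.76; 0.0476).

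Hspa8 (chr9:40800984-40810087, plus strand) encodes the constitutive HSP70 of the cytosol and had the highest level of the HSP70 members. It was at 1285, 1637 and 1040 CPM in intact neurons of 1 month, 1432, 920.5 and 1246 CPM in those of 8 months and 1780, 294 and 1449 CPM in those of 12 months. Injured neurons had 1021, 1238 and 1153 CPM at 1 month, 1167, 1274 and 1266 CPM at 8 months, and 1341, 1263 and 1363 CPM at 12 months. The value of 294 CPM belonged to the library with few counts, and all others lay within 920.5 to 1780 CPM. Means were 1232 ± 443 CPM in intact and 1232 ± 105 CPM in injured neurons (SD, n = 9), and the averaged log2 change was -0.00 ± 0.25 (95% interval -0.54 to 0.54; edgeR adjusted p = 1.0). Without the library with few counts the averaged change was -0.15 ± 0.12 (edgeR adjusted p = 0.450). The small nucleolar RNA genes, Snord14c, Snord14d and Snord14e, lie inside Hspa8 on its strand.

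Hsph1 (chr5:149614287-149636376, minus strand), the exchange factor of HSP70, was the only member called in any contrast of the main test. It was at 138, 112 and 101 CPM in intact neurons of 1 month, 52.1, 93.5 and 93.7 CPM in those of 8 months and 155, 175 and 144 CPM in those of 12 months. Injured neurons had 82.1, 82.6 and 100 CPM at 1 month, 83.2, 95.1 and 85.1 CPM at 8 months, and 94.6, 79.1 and 116 CPM at 12 months. The intact libraries of 12 months lay above all others, and at 1 and 12 months every injured library lay below every intact one of its age. In intact neurons Hsph1 was higher at 12 than at 8 months by 0.98 ± 0.26 on the log2 scale (95% interval 0.41 to 1.56; edgeR adjusted p = 0.0343). All 3 libraries of 12 months were above all 3 of 8 months, and those ages also differed in Y-linked counts. Mitochondrial counts were 1.19% to 1.32% of counts outside CT010467.1 at 8 months and 3.0% to 40.5% at 12 months. In the same comparison the 4 large-fibre markers were higher (median log2 2.41, 0 called), and the 3 peptidergic markers (median -3.56, 1 called) and 3 non-peptidergic markers (median -2.49, 0 called) were lower. Summed large-fibre markers were at 669, 665 and 617 CPM at 8 months and 1170, 7990 and 354 CPM at 12 months, the highest in the library with few counts. Peptidergic sums ran from 220 to 3290 and 166 to 467 CPM, and non-peptidergic sums from 47.7 to 1680 and 16.3 to 316 CPM. Each of these sums thus overlapped between the ages. The part of mitochondrial counts and of the mix of neurons in the Hsph1 change was not tested. Without the second library of 12 months the change was 0.91 ± 0.25 (edgeR adjusted p = 0.0270). Among the alternatives to this fit, 15 of 28 kept the call. It was lost without intact 8-month replicate 1 (0.75 ± 0.27; edgeR adjusted p = 0.0951) and narrowly without intact 8-month replicate 2, intact 12-month replicate 1, any of the 3 injured 1-month libraries, injured 12-month replicate 1 or injured 8-month replicate 3 (adjusted p = 0.0509 to 0.0565). With no filter on low counts the call was lost (0.97 ± 0.40; edgeR adjusted p = 0.147), and Hspb1 and Cryab were called in its place. Scaled to spike-ins the sign was the opposite, at -1.47 ± 1.27 (adjusted p = 0.362). With only the 6 libraries of the comparison in the fit the change was 1.06 ± 0.47 (edgeR adjusted p = 0.63). The injury change of Hsph1 was -0.41 ± 0.26 at 1 month (edgeR adjusted p = 1.0), 0.14 ± 0.26 at 8 months (0.914) and -0.71 ± 0.26 at 12 months (0.151), and the interaction was not called (0.694).

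Dnajb1 (chr8:83608193-83612653, plus strand), the J-domain partner of HSP70 that heat shock factor 1 induces, ranged from 30.1 to 77.9 CPM. It was at 75.2, 50.8 and 41.5 CPM in intact neurons of 1 month, 30.1, 44.2 and 37.6 CPM in those of 8 months and 48, 37.9 and 35.2 CPM in those of 12 months. Injured neurons had 55.7, 50.3 and 60.3 CPM at 1 month, 31, 77.9 and 49 CPM at 8 months, and 49.1, 60.9 and 56.5 CPM at 12 months. Only at 12 months did the ranges not overlap, with all injured libraries higher, by 0.45 ± 0.32 on the log2 scale (edgeR adjusted p = 0.488).

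The HSP90 genes varied the least over the 18 libraries, with a coefficient of variation of 17.2% for Hsp90aa1 and 11.3% for Hsp90ab1, against 23.5% to 163% for the other members. Hsp90aa1 (chr12:110690605-110702728, minus strand), the inducible form, was at 821, 590 and 616 CPM in intact neurons of 1 month, 689, 525 and 602 CPM in those of 8 months and 838, 829 and 612 CPM in those of 12 months. Injured neurons had 655, 516 and 623 CPM at 1 month, 692, 756 and 662 CPM at 8 months, and 960, 763 and 796 CPM at 12 months. Its injured and intact libraries overlapped at each age. Hsp90ab1 (chr17:45567775-45573271, minus strand), the constitutive form, was at 1504, 1118 and 1339 CPM in intact neurons of 1 month, 1428, 1197 and 1255 CPM in those of 8 months and 1216, 1391 and 1318 CPM in those of 12 months. Injured neurons had 1126, 1060 and 1042 CPM at 1 month, 1524, 1237 and 1161 CPM at 8 months, and 1139, 1197 and 1294 CPM at 12 months. Injured libraries of 1 month were the lowest as a group, although 1 of them overlapped the intact group. The averaged log2 changes were 0.06 ± 0.14 for Hsp90aa1 (95% interval -0.25 to 0.37; edgeR adjusted p = 0.863) and -0.13 ± 0.13 for Hsp90ab1 (95% interval -0.42 to 0.16; edgeR adjusted p = 0.635).

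**Figure D1:**
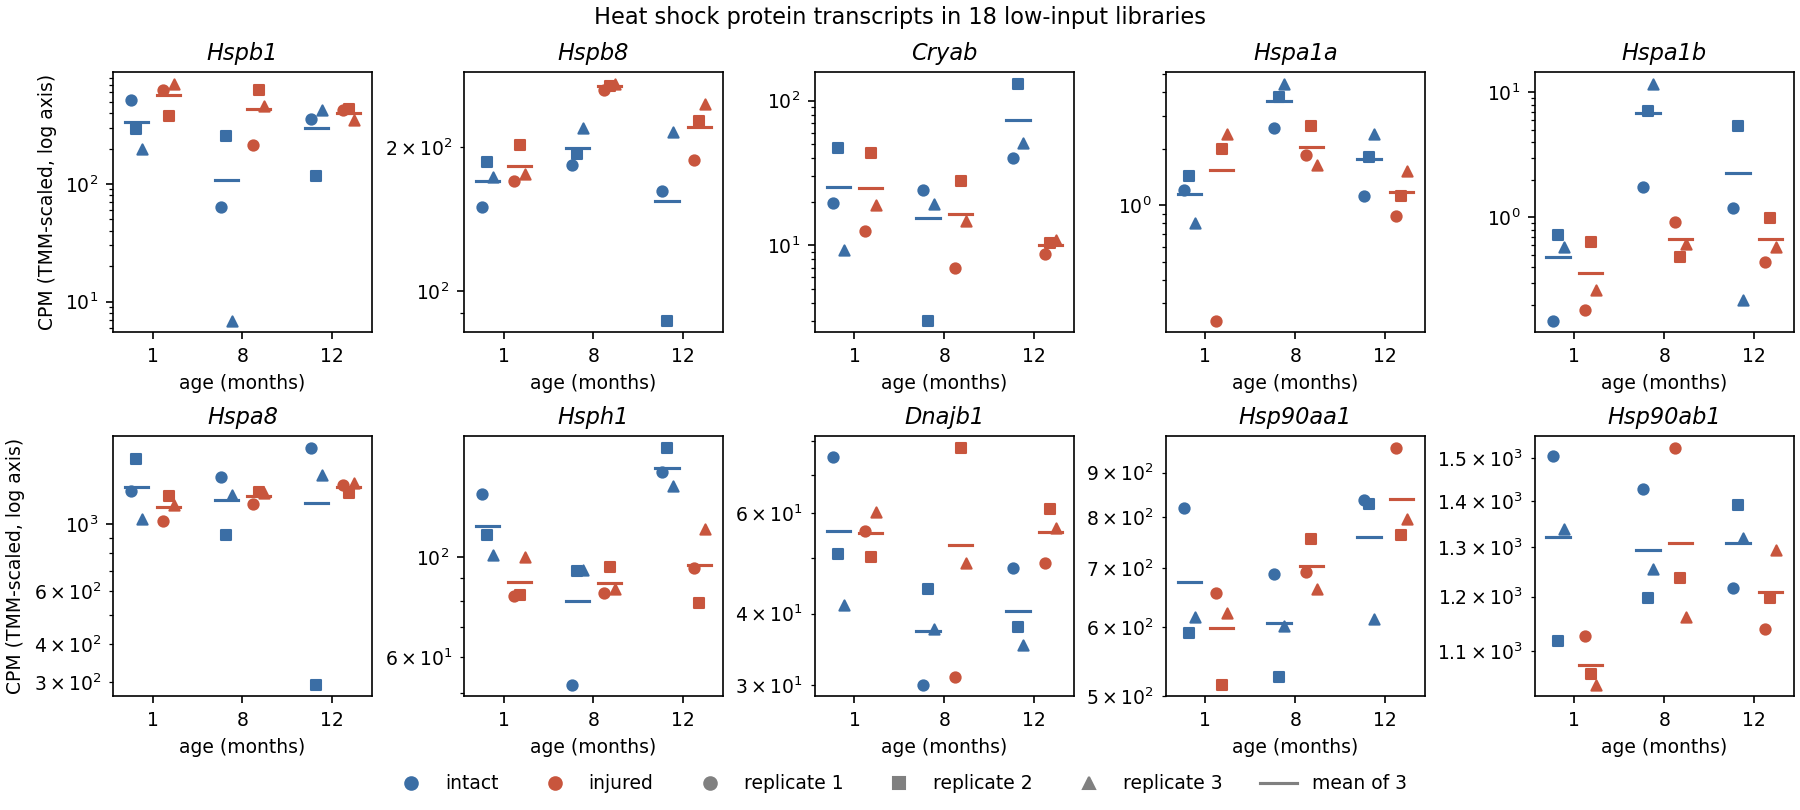
Level of each member in every low-input library (CPM on a log axis) by age in months, with intact libraries in blue, injured libraries in red, symbols for the replicate number and a line at the mean of 3. Hspb1 is lowest in an intact library of 8 months (6.90 CPM), Cryab highest in an intact library of 12 months (130.0 CPM), and Hspa8 lowest in that same library (294 CPM).

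When the 6 groups of each member were put in order of their mean, 47 of 50 neighbouring pairs of groups overlapped. The 3 that did not were Hspb8 in injured neurons of 8 months above those of 12 months, Hsp90ab1 in injured neurons of 12 months above those of 1 month, and Hsph1 in intact neurons of 12 months above those of 1 month. The orders within most members are therefore not resolved with 3 libraries a group.

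In the averaged injury contrast 0 of 10 members were called (edgeR, Benjamini-Hochberg adjusted p below 0.05), against 6.18% of all 14212 genes tested. At an unadjusted p below 0.05 there were 5 members, Hspb1 and Hspb8 upward and Cryab, Hspa1b and Hsph1 downward, against 20.3% of all genes. The median log2 change was -0.07 over the members and 0.03 over all genes. At single ages 0 of 10 were called at 1 month (all genes 0.232%), 0 at 8 months (0.957%) and 0 at 12 months (2.99%), and at an unadjusted p below 0.05 there were 0, 2 and 2 members, against 4.5%, 12.2% and 18.6% of all genes. The interaction of injury with age called 0 members and 0% of all genes, with 1 member (Cryab) at an unadjusted p below 0.05, against 8.17% of all genes. Ranges of injured and intact libraries did not overlap for 1 member at 1 month, 2 at 8 months and 3 at 12 months, where all genes gave 17.8%, 14.3% and 25.9%. For single ages these counts are near the shares of all genes, given that there are 10 members.

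Between ages in intact neurons, 0 members were called for 8 against 1 month (all genes 0.922%), 0 for 12 against 1 month (0.246%) and 1, Hsph1, for 12 against 8 months (6.69%). In injured neurons 0 members were called for 8 against 1 month (0.225%), for 12 against 1 month (0.113%) or for 12 against 8 months (0.0633%), and none had an unadjusted p below 0.05, against 4.99%, 3.86% and 4.29% of all genes. In intact neurons 3, 0 and 3 members had one, against 16.2%, 10.7% and 25.3%. Other tools gave a few calls for the injury contrasts: DESeq2 called Hspa1b (log2 -1.65 ± 0.55, adjusted p = 0.0296) in the averaged contrast and at 8 months (-3.37 ± 0.90, adjusted p = 0.00904), and limma-voom with quality weights called Hspb1 (1.49 ± 0.41, adjusted p = 0.0384) and Hspa1b (-1.61 ± 0.45, adjusted p = 0.0333) in the averaged contrast. At 12 months DESeq2 called Cryab (-2.99 ± 0.74, adjusted p = 0.00213) and Hsph1 (-0.79 ± 0.25, adjusted p = 0.0281).

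**Figure D2:**
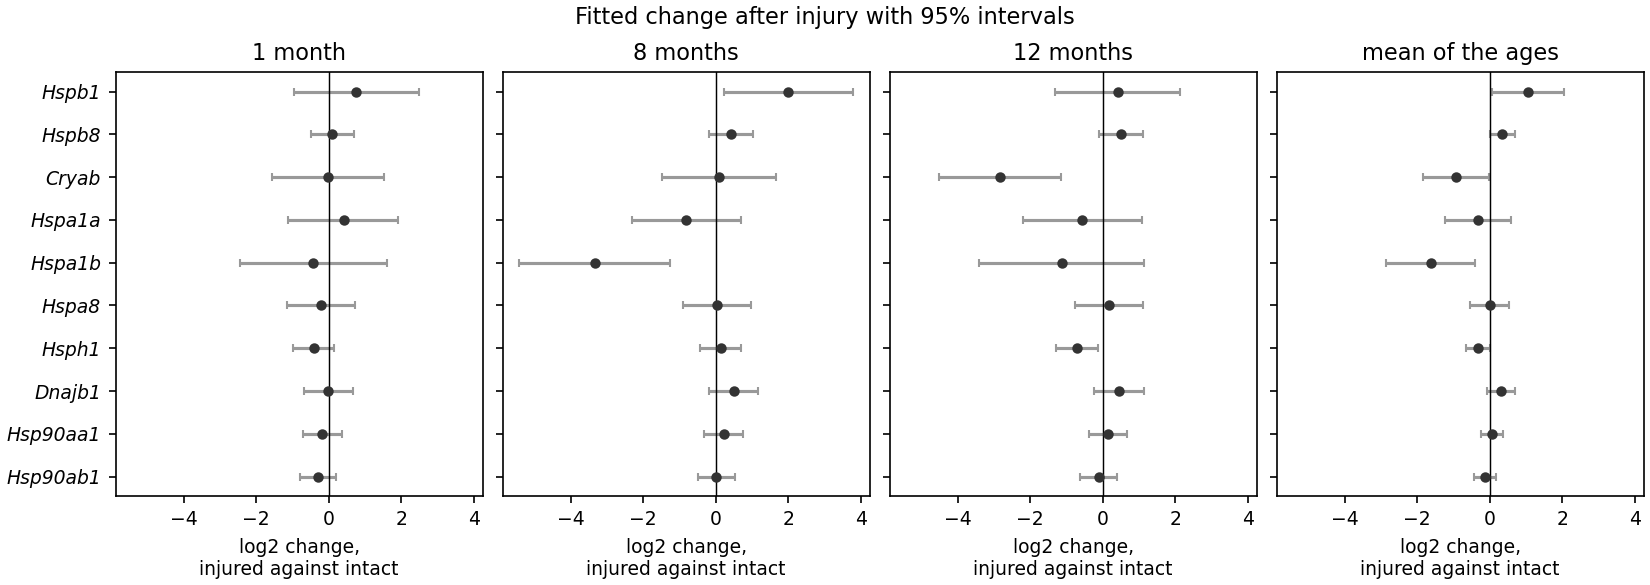
Fitted log2 change of each member in injured against intact neurons at 1, 8 and 12 months and as the mean of the ages. Points mark the edgeR estimate, and bars a 95% interval from its SE and a t value at 12 degrees of freedom (unadjusted). The interval of Hspb1 in the mean of the ages runs from 0.06 to 2.06 and that of Hspa8 from -0.54 to 0.54, and that of Cryab at 12 months lies below 0 (-4.52 to -1.15).

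Scaling to the ERCC spike-ins moved the median log2 injury change of all genes to 2.90, with a median of 14.4% of counts from spike-ins in intact and 2.14% in injured libraries. On that scale Hspb1 (3.70), Dnajb1 (3.18), Hspb8 (3.14) and Hsp90aa1 (3.0) lay above the median of all genes, and Hsp90ab1 (2.79), Hspa8 (2.75), Hsph1 (2.56), Hspa1a (2.53), Cryab (2.40) and Hspa1b (0.98) lay below it. With the share of CT010467.1 as a covariate, the averaged change of Hspb1 was 0.17 ± 1.10 (edgeR adjusted p = 0.983) and only 11 genes of the whole table were called.

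The wider chaperone network was described with 74 other genes in 7 lists: small heat shock proteins, HSP70 and HSP110 proteins, HSP90 with its co-chaperones, J-domain proteins, HSP70 exchange factors and co-chaperones, chaperonins, and heat shock factors with their regulators. In the averaged injury contrast 0 of the 67 genes tested were called in either direction (background 6.18%), 35 had a positive change, and 12 had an unadjusted p below 0.05, against 20.3% of all genes. Their median log2 change was 0.05, against 0.03 over all genes. Among the lists the median was highest for the other HSP70 and HSP110 genes (0.22, 7 of 10 positive) and lowest for the 2 small heat shock proteins tested (-0.34) and the HSP70 co-chaperones (-0.24, 2 of 9 positive). Of the HSP90 list 3 of 14 changes were positive (median -0.11), of the J-domain list 12 of 17 (median 0.08), of the chaperonins 8 of 10 (median 0.11) and of the heat shock factors with regulators 2 of 5 (median -0.07). Hsf1, the main transcription factor of the heat shock response, had a log2 change of -0.21 ± 0.18 (edgeR adjusted p = 0.562), and Hsf2 of 0.06 ± 0.21 (edgeR adjusted p = 0.915).

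At single ages 1 gene of these lists was called after injury, at 12 months, where 2.99% of all genes were called. It was Hspa2, an HSP70 gene best known from spermatocytes, chosen for naming after its values were seen. In intact neurons of 12 months Hspa2 was at 6.59, 3.61 and 4.13 CPM and in injured neurons at 17.6, 27.6 and 14.9 CPM. The ranges did not overlap, and the log2 change was 1.97 ± 0.42 (edgeR adjusted p = 0.0207). The call was kept by 22 of 29 alternatives and lost without intact 12-month replicate 3 (1.81; edgeR adjusted p = 0.0723) or injured 12-month replicate 1 (2.06; 0.0540) or 2 (1.68; 0.101). It was also lost with limma-voom, the covariate, the replicate block and a fit of only the libraries compared. At 8 months Hspa2 had the other sign, with 10.1, 29 and 18.2 CPM in intact and 9.99, 12.4 and 12.1 CPM in injured neurons (log2 -0.73 ± 0.38; edgeR adjusted p = 0.488). Between 8 and 12 months in intact neurons 3 genes of the lists were called (background 6.69%), likewise named after their values were seen: Hspa2 fell by 1.90 (edgeR adjusted p = 0.0173), St13, a co-chaperone of HSP70, rose by 1.32 (edgeR adjusted p = 0.0123; -1.05 with spike-in scaling), and Hspb6, a small heat shock protein of muscle, rose by 4.46 (edgeR adjusted p = 0.0435). The 8-month libraries had 0, 0 and 1.4 CPM of Hspb6 and the 12-month libraries 11.9, 0 and 17.8 CPM, so its groups overlapped. The calls were kept by 24 (Hspa2), 25 (St13) and 10 (Hspb6) of 28 alternatives. Hspa2 lost it without intact 12-month replicate 3 or intact 8-month replicate 2 (edgeR adjusted p = 0.0522 and 0.0641), and Hspb6 without any 1 of 15 libraries. All 3 genes lost it with limma-voom and with a fit of only the libraries compared, and St13 and Hspb6 also with spike-in scaling.

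The genes most like Hspb1 across the 18 low-input libraries were named by the highest Pearson correlation of log2 CPM, over all genes tested. The first was its pseudogene Hsp25-ps1 (r = 0.977), followed by Rprm (0.939), Il7 (0.912), Nrcam (0.911), Arl5b (0.908), Pip5kl1 (0.869), Calml4 (0.863), Necab1 (0.856), Tnfrsf1a (0.852) and Thoc6 (0.851). The third intact library of 8 months, with the lowest Hspb1, was low in all of them. When each library was left out in turn, the lowest r was 0.934 for Hsp25-ps1 and 0.828 for Rprm but 0.432 for Tnfrsf1a and 0.536 for Thoc6. All points share the libraries, their depth and their mix of neurons. Among the members themselves the highest correlations were Hspb8 with Hspa8 (r = 0.667), Hspb1 with Dnajb1 (0.599) and Hspa1a with Hspa1b (0.572), and the lowest was Hspb1 with Hspa1b (-0.780).

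**Figure D3:**
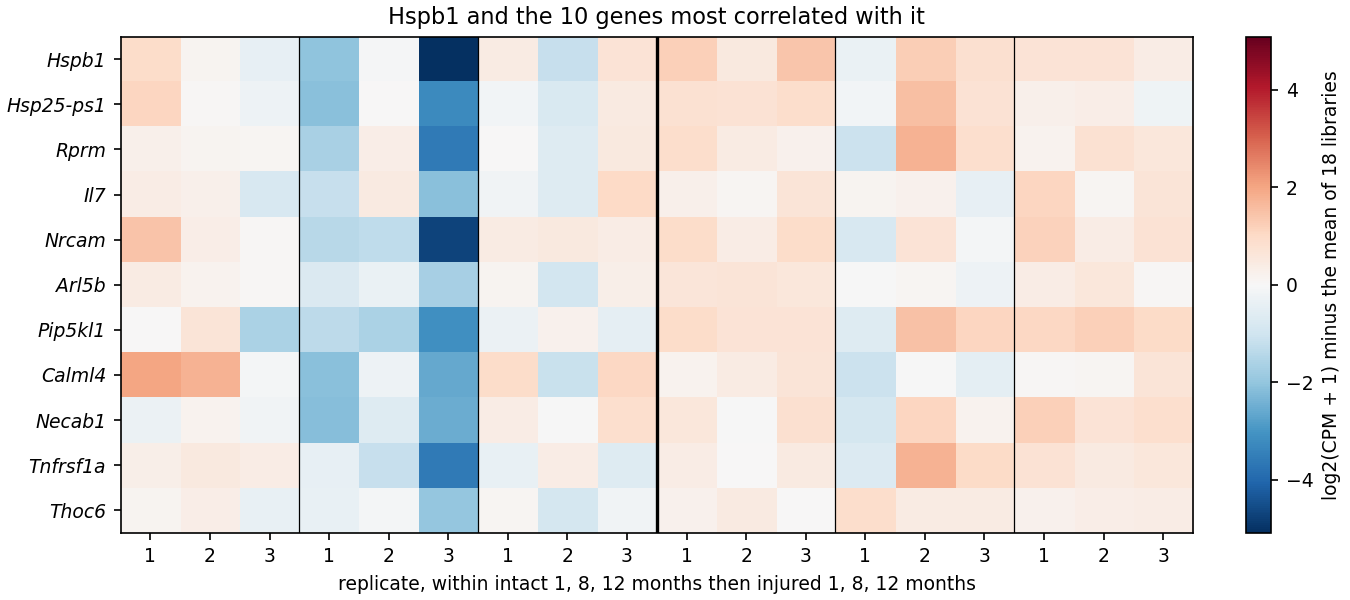
Level of Hspb1 and of the 10 genes most correlated with it in each of the 18 low-input libraries, as log2(CPM + 1) minus the mean of the gene over the libraries (red above, blue below). Columns are intact libraries of 1, 8 and 12 months and then injured libraries of the same ages, and the third intact library of 8 months is blue in every row.

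In single cells, CPM was computed on counts without CT010467.1, and 68 of 69 cells had counts. Cells held a median of 2504750 counts outside that feature, and 55 cells had at least 100000. These deeper cells were chosen by counts alone. Among them were intact cells of 1 month with 561 and 1141 genes detected and 42.5% and 51.1% mitochondrial counts. An injured cell of 1 month had 608 genes detected and 68.3% mitochondrial counts. Such cells were kept in all values of the deeper cells. Spike-in counts were 3419 to 37595326 in cells of 1 month, up to 99.9% of a cell, and 0 to 118 in cells of 1 year. Age therefore cannot be told apart from this difference in the single cells. Pooled values are given with exact 95% Poisson intervals, which cover counting error only, not the spread between cells or animals. At 1 month pooled Hspb1 was 385 CPM (378.6 to 391) in intact and 672 CPM (665 to 679) in injured cells. At 1 year it was 791 CPM (784 to 798) in intact and 580.1 CPM (575 to 585) in injured cells. The order of intact and injured cells was thus the opposite at the 2 ages, and a mean that weights cells equally put injured cells higher at 1 year as well (913 CPM in intact and 1247 CPM in injured cells). That mean rested in part on 1 injured cell at 14520 CPM of Hspb1, 929 CPM of Atf3 and 187292 counts. Medians over cells were 239 and 417 CPM at 1 month and 779 and 475 CPM at 1 year, in intact and injured cells. Among cells with at least 100000 counts, Sprr1a had counts in 3 of 12 intact and 11 of 17 injured cells of 1 month. At 1 year it had counts in 5 of 8 intact and 7 of 18 injured cells, so detection of this injury gene did not set the conditions apart at that age. Detection takes no account of level, and levels of Sprr1a were not compared between these groups. Whether each cell labelled injured had responded to injury was not tested.

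Relative to its level, Hspb1 spread more widely over cells than Hspa8. In the 55 deeper cells it ran from 0 to 1924 CPM in intact and 0 to 2037 CPM in injured cells of 1 month, and from 40.3 to 3106 CPM and 0 to 14520 CPM at 1 year. Hspa8 in the same cells ran from 2067 to 4852 CPM and from 75.1 to 7511 CPM at 1 month, and from 401 to 4694 CPM and from 446 to 5805 CPM at 1 year. The part of cells with few genes detected in these ranges was not tested. Pooled Hspa8 was 3230 and 4173 CPM at 1 month and 2884 and 3260 CPM at 1 year in intact and injured cells.

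Cells with much Mrgprd had little Hspb1. Over all 55 deeper cells the relation was weak, with a Spearman correlation of Hspb1 of -0.231 with Mrgprd and of -0.07 and -0.146 with P2rx3 and Scn11a, the other markers of non-peptidergic nociceptors. In the 8 intact cells of 1 year these correlations were 0.168, 0.548 and 0.833. Of the 55 deeper cells 7 had at least 500 CPM of Mrgprd, a limit set after these values were seen, with 2 more cells between 200 and 500. Hspb1 in the 7 cells ran from 9.5 to 89.2 CPM (median 36.8), and in the 48 others from 0 to 14500 CPM (median 567). The ranges overlapped, because some cells without Mrgprd also had little Hspb1. Whether those were cells with few genes detected was not tested. The 7 cells came from intact and injured groups of 1 month and from the injured group of 1 year. Their Hspb8 ran from 428 to 642 CPM (median 606), against 0 to 1110 CPM (median 376) in the others. Their Cryab ran from 0 to 31.5 CPM (median 0.539), against 0 to 498 CPM (median 47). Within groups the Hspb8 medians were 466 against 493 CPM in intact cells of 1 month and 630 against 481 CPM in injured ones. In injured cells of 1 year they were 600 against 310 CPM. Within the 2 intact cells of 1 month Hspb1 was 9.5 and 36.8 CPM, and within the 3 injured cells it ran from 14 to 83 CPM.

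Hspb1 was compared with Atf3 among the deeper cells of each group as a description of cells that share libraries, depth and source animals. The Spearman correlation was 0.329 in 12 intact and 0.623 in 17 injured cells of 1 month, and 0.619 in 8 intact and 0.825 in 18 injured cells of 1 year. With Nefh it was 0.406, 0.338, -0.405 and 0.690 in the same order. Its correlation with Cryab ran from 0.852 in intact cells of 1 month to -0.288 in injured cells of 1 year. Cell names of 1 month begin with L4 or L5. In injured cells Hspb1 had a median of 936 CPM and Atf3 of 741 CPM in 10 cells named L4, and 268 CPM and 71.9 CPM in 7 cells named L5, where Atf3 reached at most 120 CPM. In intact cells the Hspb1 medians were 316 CPM in 9 cells named L4 and 44.2 CPM in 3 named L5.

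**Figure D4:**
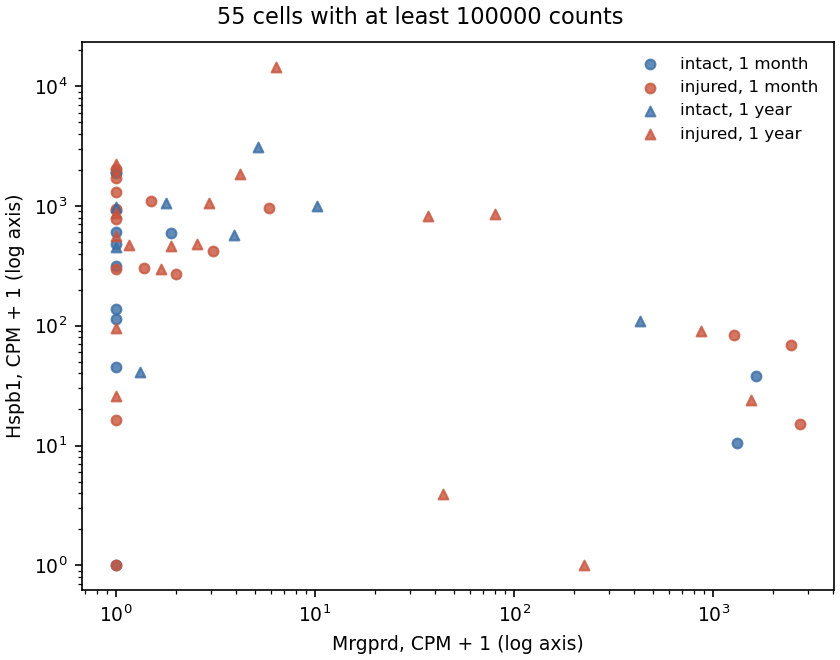
Hspb1 against Mrgprd in the 55 cells with at least 100000 counts, in CPM + 1 on log axes, by condition (colour) and age (symbol). The 7 cells with at least 500 CPM of Mrgprd lie below 100 CPM of Hspb1, and the 48 other cells run from 0 to 14500 CPM of Hspb1.

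Pooled Hspb8 was 446 CPM (439 to 452) in intact and 553 CPM (547 to 560) in injured cells of 1 month, and 361 CPM (356 to 366) and 363 CPM (359 to 366) at 1 year, where the intervals overlapped. Pooled Cryab was 28.5 and 43.6 CPM in intact and injured cells of 1 month and 70.3 and 126 CPM at 1 year, where the low-input libraries of 12 months had the other direction. The 3 cells with the most Cryab were injured cells of 1 year at 498, 381 and 294 CPM. They had 23.9% to 25.1% mitochondrial counts and 4480 to 46800 CPM of Apoe, a lipid carrier abundant in satellite glia. The next 2, injured cells of 1 year at 280 and 238 CPM of Cryab, had 4.05 and 257 CPM of Apoe, 1.26% and 1.64% mitochondrial counts, 979 and 982 CPM of S100b and 1790 and 2920 CPM of Nefh. Summed satellite glia markers had a median of 1480 CPM in intact and 1110 CPM in injured cells of 1 year, and reached 52700 CPM in an injured cell. The part of glial RNA in Cryab was not tested.

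Hspa1a and Hspa1b had no counts in many cells. Hspa1a was detected in 6 of 18 intact cells (33.3%, exact 95% interval 13.3% to 59%) and 10 of 21 injured cells (47.6%, 25.7% to 70.2%) of 1 month, and in 7 of 8 and 11 of 21 cells of 1 year. These intervals cover counting error only and make no comparison of conditions, since each group is 1 sample. Among the deeper cells it was detected in 6 of 12 intact and 10 of 17 injured cells of 1 month and in 7 of 8 and 11 of 18 cells of 1 year. Its pooled level in intact cells of 1 month, 22.2 CPM, came to 92.3% from 1 cell, with 109 CPM of Hspa1a, 20.1 CPM of Hspa1b and 850 CPM of Dnajb1, the highest Dnajb1 of the deeper cells. The pooled value of injured cells of that age was 4.97 CPM. Without that cell, an alternative chosen after seeing the data, the log2 ratio of injured to intact cells was 1.24 in place of -2.16 for Hspa1a and 0.28 in place of -0.60 for Dnajb1. At 1 year pooled Hspa1a was 6.09 CPM in intact and 17.2 CPM in injured cells, and Hspa1b 0.444 and 2.84 CPM.

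Pooled Dnajb1 was lower at 1 year than at 1 month in both conditions, at 88.4 and 83.5 CPM against 286 and 188 CPM in intact and injured cells. Cells of these ages also differed in spike-in counts, which cannot be told apart from age. Medians over cells were 86.9 and 69.6 CPM at 1 year and 135 and 167 CPM at 1 month. Pooled Hsph1 was 196 and 188 CPM at 1 month and 248 and 288 CPM at 1 year. Hsp90aa1 was at 1119 and 1259 CPM at 1 month and 1200 and 1462 CPM at 1 year, and Hsp90ab1 at 3598 and 3332 CPM and then 2687 and 3020 CPM. For Hspa8, Hsp90ab1 and Hsph1 at 1 year and Hsp90aa1 at 1 month, the mean over cells had the opposite order of conditions to the pooled value, so no direction is read from them.

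**Figure D5:**
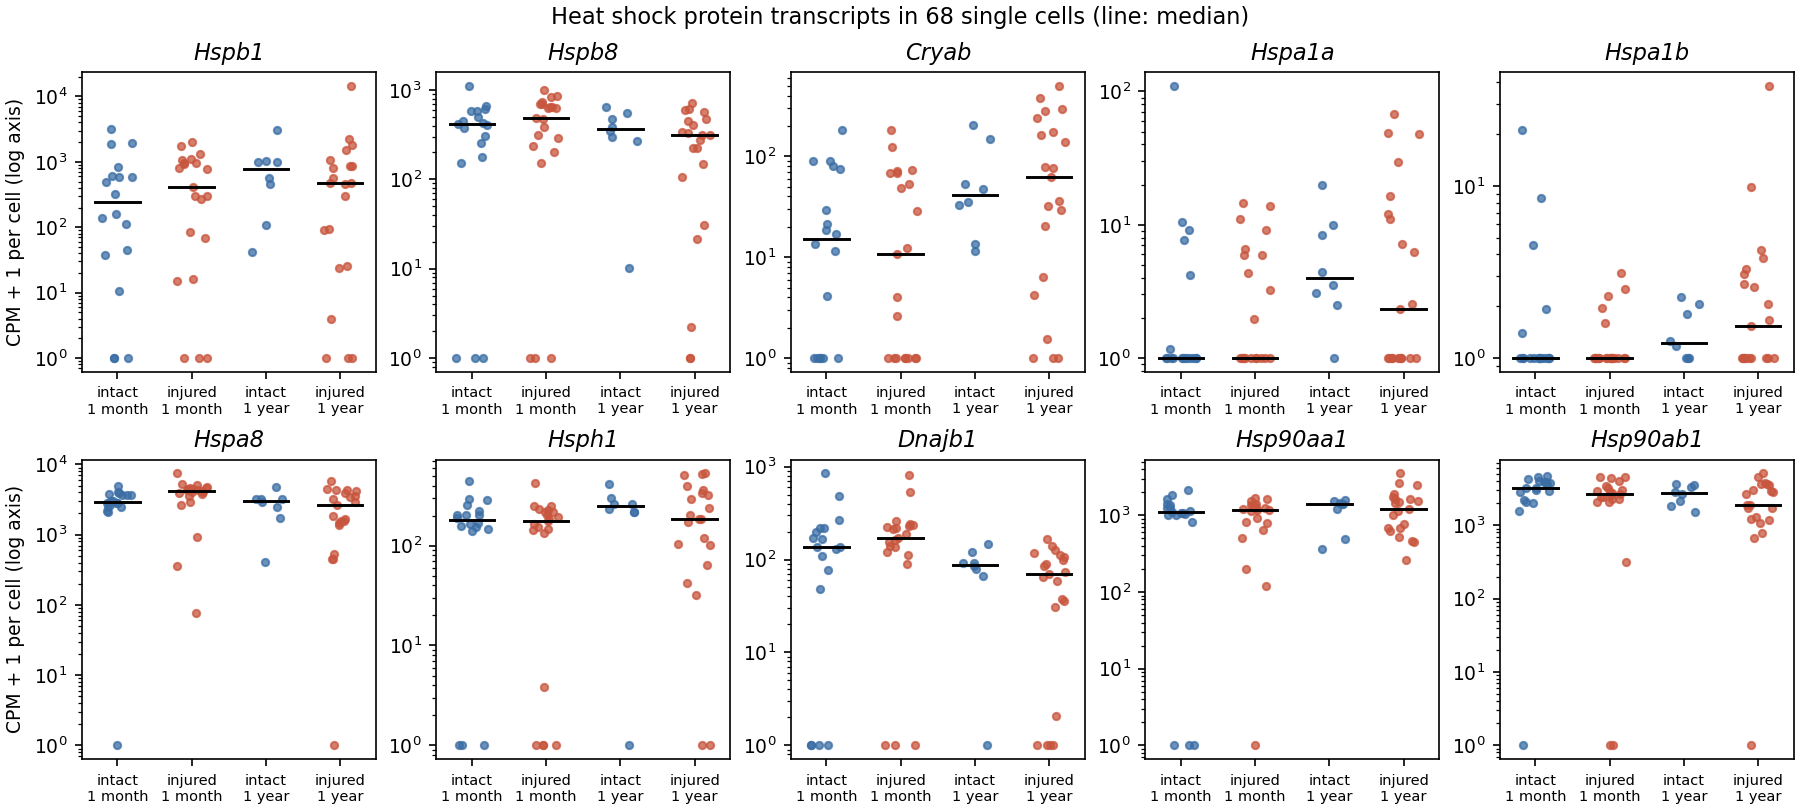
Level of each member in every single cell with counts (CPM + 1 on a log axis), by condition and age, with a line at the median of the group. Hspb1 and Cryab spread over several powers of 10, and Hspa1a and Hspa1b lie at 0 CPM in many cells.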

How the data were processed

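RNA was measured in 18 low-input libraries and 69 single cells by SMART-seq2, per the labels' protocols. The deposited values are raw fragment counts, 1 row per gene, made by the authors with featureCounts 1.5.2 (paired-end, without strand, unique alignments, exons summed by gene name, GENCODE vM16 on GRCm38 with ERCC sequences), per the file headers. The submitters' processing notes also name Trim Galore, STAR, Bismark and mm10; their roles and versions are not given in the sources used here. Of 230 samples, 136 are RNA samples under 87 names, each with 1 column; the 94 samples of methylation are not analysed here. The deposited table also gives exon lengths in bp (another unit), used here for RPKM.

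Low-input counts were filtered (filterByExpr, 14212 genes kept), scaled by TMM and fitted with edgeR 4.0.16 (R 4.3.3; robust quasi-likelihood, 6 group means over 18 libraries, 12 residual degrees of freedom, common biological coefficient of variation 0.543). Averaged and single-age injury contrasts, the interaction and age contrasts were tested, two-sided, with Benjamini-Hochberg adjustment over all genes at 0.05. The 95% intervals were computed apart from the test, from the SE and a t value at 12 degrees of freedom, and can differ from its p-value. For Hspb8 in the averaged contrast the edgeR unadjusted p was 0.0457, while the interval (-0.00396 to 0.692) included 0. Tested on simulated counts for these 14212 genes, the averaged injury test recovered 22% of genes with a log2 change of 1 and 86% with 3. Alternatives were other scalings, no filter, DESeq2 1.42.0, limma-voom (limma 3.58.1), a covariate, a replicate block, summed near-identical genes and leaving out each library. To look for pairing, same-numbered libraries were correlated after subtracting each group's mean. At 1 month the values were 0.196, 0.218 and 0.439 over 3992 genes, and at 8 months -0.362, -0.336 and 0.174. Differently numbered libraries were not correlated as a baseline, so these values cannot show pairing. The labels give no pairing, and pairs by replicate number are an assumption. The 10 members, the chaperone lists and the markers were chosen with earlier results of these data known. Named genes were the members, called genes of the lists, Hsf1, Hsf2 and Hsf4, the 10 genes most correlated with Hspb1, and Atf3 and Sprr1a. Hsf4 had an averaged log2 change of -0.17 (edgeR adjusted p = 0.776).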

Additional observations from a re-analysis of the deposited data

Results flagged for a closer look

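Hspb1 reached 3106 CPM in 1 of the 8 intact cells of 1 year, far from the other 7, of which the next had 1047 CPM; the median was 779 CPM. The gap was 0.672 of the whole range, above the critical value of 0.526 for 8 values. The rule was applied to each of the 10 members in this group, on CPM without logs. For normally distributed values chance flags about 1 in 20 genes, so 1 flag among 10 members is not unusual. The cell had 5518334 counts, 0.0828% of them mitochondrial, 164 CPM of Atf3 and 114 CPM of Hsp25-ps1.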

How the results depend on the processing

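The main test called 0 members in the averaged injury contrast; scaling to spike-ins called 9 (and 94.9% of all genes), no filter 2, limma-voom 2 and DESeq2 1, and leaving out single libraries gave 0 to 1 (1 without intact 12-month replicate 3, intact 8-month replicate 1 or intact 8-month replicate 2). At 8 months no filter called 1 and DESeq2 1. At 12 months spike-in scaling called 10 (96.2% of all genes), no filter 1 and DESeq2 2, and leaving out libraries gave 0 to 1 (1 without intact 12-month replicate 1 or intact 8-month replicate 1 or 2). The interaction had 1 call with no filter. In intact neurons, 8 against 1 month had 2 calls with no filter, 1 with DESeq2 and 0 to 1 when libraries were left out (1 without intact 12-month replicate 2 or 3 or intact 8-month replicate 1), and 12 against 1 month had 9 with spike-in scaling (89.9% of all genes). For 12 against 8 months, where the main test called 1, no filter called Hspb1 and Cryab but not Hsph1, 2 in all, DESeq2 called 2 with Hsph1, spike-in scaling, limma-voom, the covariate and a fit of only the 6 libraries called 0, and leaving out libraries gave 0 to 1 (0 without injured 1-month replicate 1, 2 or 3, injured 8-month replicate 3, injured 12-month replicate 1, intact 8-month replicate 1 or 2, or intact 12-month replicate 1). In injured neurons limma-voom called 1 in 8 against 1 month and 1 in 12 against 1 month. The cause of these differences was not tested.

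Spike-in scaling turned the sign of the averaged injury change for Cryab (2.40), Hspa1a (2.53), Hspa1b (0.98), Hspa8 (2.75), Hsp90ab1 (2.79), Hsph1 (2.56) and Hsf1 (2.71), of the injury change at 12 months for Cryab (3.11) and Hsph1 (4.76), of Hspa1a for 8 against 1 month (-0.40), and of the intact change from 8 to 12 months for Hsph1 (-1.47), St13 (-1.05) and Hspb1 (-1.35). The covariate turned the averaged change of Hspb8 (-0.0386), Hspa1a (0.0594), Hsp90ab1 (0.0997), Dnajb1 (-0.106) and Hsf2 (-0.398). Hspa8, near 0, turned with no filter (0.0178), limma-voom (0.069) and the block (0.12) and ran from -0.151 to 0.145 without single libraries, where Hsf2 ran from -0.0541 to 0.224. In single cells, the mean over cells turned the log2 ratio of injured to intact for Hsp90aa1 (-0.0632) and Dnajb1 (0.18) at 1 month and for Hspb1 (0.45), Hspa8 (-0.10), Hsp90ab1 (-0.21) and Hsph1 (-0.085) at 1 year. Leaving out the cell with the most Hspa1a turned Hspa1a (1.24) and Dnajb1 (0.28) at 1 month. With the replicate block 0 members were called in the averaged, single-age and interaction tests, as without it. In that fit, which assumes pairs by replicate number, the averaged change of Hspb1 was 1.39 ± 0.48 (edgeR adjusted p = 0.176). Over all genes the averaged contrast called 878, against 329 with the block, 1548 with DESeq2, 1722 with no filter, 13493 with spike-in scaling, 11 with the covariate and 561 to 1462 without single libraries. Same-numbered libraries of 8 and 12 months had correlations of -0.362 to 0.174. Few counts limit Hspa1a and Hspa1b, and wide intervals limit Hspb1.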
